A study of Caenorhabditis elegans with 33 samples.

Results

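The 10 genes described here, npr-1, gcy-33, gcy-35, gcy-36, tax-2, tax-4, osm-9, ocr-2, odr-4 and lite-1, belong to the circuit by which *Caenorhabditis elegans* senses oxygen, decides between solitary and social feeding, and avoids light. They were taken as a list of names, drawn up with earlier results of these data known, and all 10 were found among the 18811 gene symbols listed for each library. Whole adult worms of the wild-type strain N2, from synchronized populations, were sampled after feeding on BW25113, a laboratory strain of *Escherichia coli*, or on 1 of 10 bacterial mutants named crl, iaaA, purH, torY, yccU, ycdC, ycgJ, yghZ, yjgU and ypdF. Each of the 11 diets had 3 libraries, 33 in all. All worms were of the same wild-type genotype, so no gene of the worm was altered in any group. For 1 diet the sample titles read yjgU and the treatment label reads yigU, and the name in the titles is used. The series title links genetic variation in gut bacteria to social behavior of the host. The question put to these genes is whether the diet changed the transcripts of a circuit known for that behavior.

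In this circuit, oxygen is detected by soluble guanylate cyclases that bind it through a heme group and make cGMP. The cyclases GCY-35 and GCY-36 act in the neurons URX, AQR and PQR, which respond to a rise in oxygen, and GCY-33 acts in the BAG neurons, which respond to a fall. The channel formed by TAX-4 and TAX-2 opens on cGMP and excites these cells. NPR-1, a neuropeptide receptor bound by the peptides FLP-18 and FLP-21, acts in the hub neuron RMG and keeps worms dispersed, and strains with low NPR-1 activity gather in groups at the edge of the food. The TRPV channel subunits OSM-9 and OCR-2 act in the nociceptive neurons ASH and ADL, and with ODR-4, a membrane protein that helps receptors reach the cilia, they promote gathering. LITE-1 is a light receptor of the gustatory receptor type that drives avoidance of short-wavelength light. N2 is known as a solitary feeder.

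Library totals lay between about 20459800 and 22666700 expected counts (estimated reads per gene). Of the diets, only torY and yccU had marker genes of the molt and of sperm with an adjusted p under 0.05 (edgeR), and torY also those of oocytes. The 8 sperm markers had a positive median log2 fold change in every mutant diet, from 0.285 in ycdC to 2.93 in torY. These values all share the 3 BW25113 libraries. In torY, 3 of 12 oocyte and early embryo markers fell and 0 rose (sums of 2816 to 4177 CPM against 6085 to 9124 in BW25113). In yccU 0 of these 12 were called and 3 had an unadjusted p under 0.05 (edgeR), as had 26.9% of all genes tested. Of all genes tested, edgeR called 14.9% in torY and 2.62% in yccU, and none in the other mutant diets. In torY, 9 of 19 molting and larval cuticle markers and 4 of 8 sperm markers rose and 0 fell, and in yccU 8 and 1 of them rose and 0 fell (edgeR, adjusted p under 0.05). Library purH replicate 1 stood apart from the other purH libraries: its summed yolk level was 6469 CPM, while 78357 CPM was the highest in that diet. CPM here means counts per 1000000 on library sizes scaled by TMM, a method that equalizes the bulk of the genes. Markers shared by all neurons were found in every library, with 17 of 17 listed genes present and a summed level of 193.6 to 601.3 CPM. Markers of ciliated sensory neurons, where many of these genes are known to act, had a summed level of 4.202 to 18.75 CPM over 17 genes. By TPM, which is set per length, the median gene of the pan-neuronal list had a mean of 4.11 and that of the ciliated list 0.189.

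Most of the 10 genes were barely visible in whole-worm RNA. By the deposited TPM (abundance per transcript length), 8 of the 10 genes had means between 0.0382 and 0.103 over the 33 libraries. In order, these were osm-9 at 0.103 ± 0.0601 TPM, gcy-33 at 0.0924 ± 0.0669, ocr-2 at 0.0842 ± 0.0628, npr-1 at 0.0800 ± 0.0740, gcy-35 at 0.0703 ± 0.0545, gcy-36 at 0.0479 ± 0.0361, tax-4 at 0.0442 ± 0.0475 and tax-2 at 0.0382 ± 0.0357 (SD, n = 33). Each neighbour in this order differed from the next by less than its SD. Above them stood lite-1 at 0.784 ± 0.352 TPM, and far above all others odr-4 at 21.4 ± 5.91 TPM, which was 27.3 times lite-1. Of all 18811 symbols, 12.4% had a lower mean TPM than tax-2, 18.2% a lower one than osm-9, 37.7% a lower one than lite-1 and 82.0% a lower one than odr-4. In bulk RNA, fewer cells of a type and less RNA per cell cannot be told apart.

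**Figure D1:**
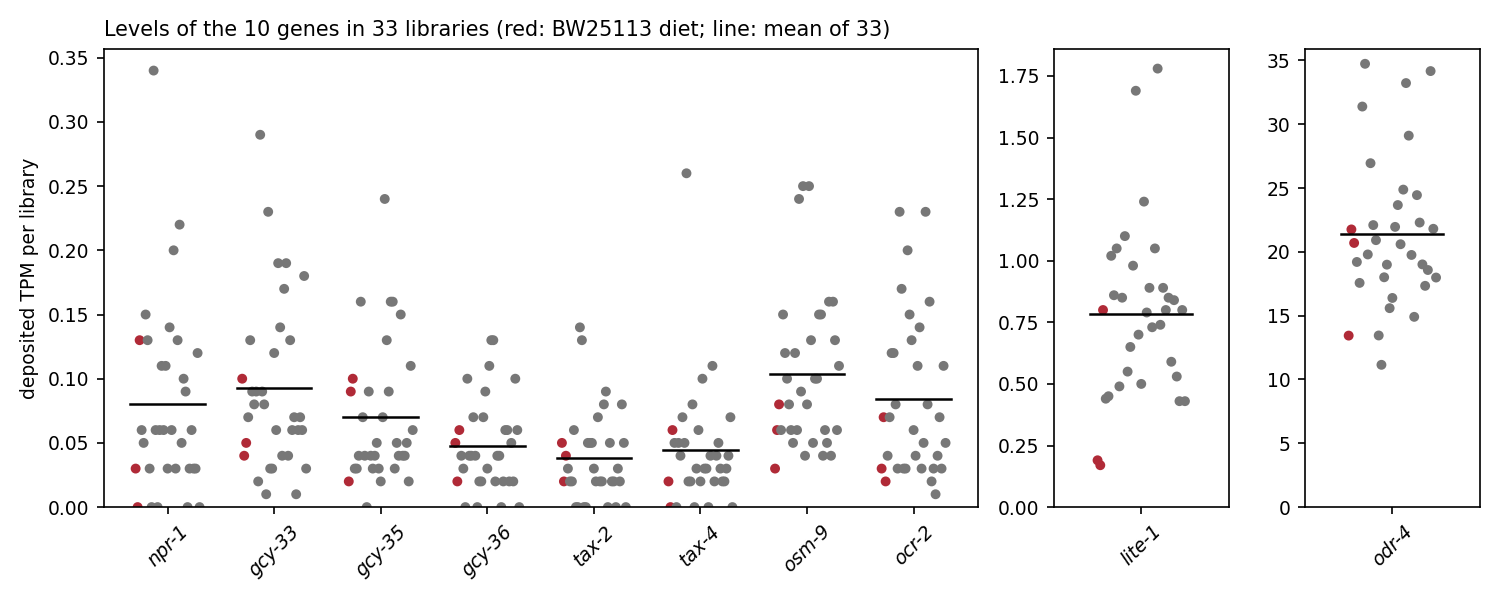
Deposited TPM (vertical axes, linear, with a separate scale for each of the 3 panels) of each gene in each of the 33 libraries (points, in order of the diets from left to right; red for BW25113) with the mean of 33 libraries as a line. The 8 genes of the left panel have means of at most 0.103 TPM, lite-1 has 0.784 and odr-4 has 21.4.

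The depth behind these levels was small. The 8 low genes together made up 14 to 86 expected counts per library, with a median of 29. Of their 264 values, 22 were 0 and 238 were under 10 counts. A single count was worth 0.0254 to 0.0714 CPM, depending on the library. Only 5 of the 10 genes, gcy-33, osm-9, ocr-2, odr-4 and lite-1, passed the filter on low counts and were tested. For npr-1, gcy-35, gcy-36, tax-2 and tax-4 the values are therefore given as a description. In an alternative fit of edgeR with no filter, their 50 tests against BW25113 gave 0 calls and 0 unadjusted p under 0.05. Low depth and a lack of differences between diets cannot be told apart here, and the part of depth was not tested.

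The neuropeptide receptor gene npr-1 (WBGene00003807; WBcel235, chromosome X, 4767152 to 4769985, minus strand) was counted 92 times in all 33 libraries together, with an exact 95% Poisson interval of 74.2 to 113 that covers counting error only. Its counts were 1, 0 and 4 in the BW25113 libraries and ran from 0 to 13 over all libraries, with a median of 2. In 5 libraries it was at 0. In BW25113 replicate 2, 1 of these, a count of 0 allows a level of up to 0.184 CPM, taking 3 counts as the limit. The highest count, 13, was in purH replicate 1, where the other purH libraries had 2 and 0.

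By diet, mean npr-1 levels were 0.160 ± 0.0583 CPM in ycgJ, 0.149 ± 0.0829 in yccU, 0.137 ± 0.172 in purH, 0.133 ± 0.0745 in crl, 0.127 ± 0.0349 in torY and 0.119 ± 0.0960 in ycdC (SD, n = 3). Below these came BW25113 at 0.0883 ± 0.107, yghZ at 0.0872 ± 0.0763, yjgU at 0.0705 ± 0.0305, ypdF at 0.0618 ± 0.0710 and iaaA at 0.0607 ± 0.0722 CPM. All steps between neighbours were smaller than the SDs, and BW25113 overlapped with every mutant diet. Without purH replicate 1 the purH mean was 0.0407 CPM, so the place of purH in the order rests on that library.

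Among the oxygen-binding cyclases, gcy-33 of the BAG neurons (WBGene00001553; chromosome V, 11995805 to 12001797, minus strand) had 7, 3 and 3 counts in BW25113 and 1 to 22 over all libraries. Its exons overlap those of the neighbours C52E4.7 by 61 bases and C52E4.12 by 7 bases on the other strand, and the strandedness of the libraries is not given, so some of its few counts may be theirs. The highest diet was purH at 0.387 ± 0.159 CPM and the lowest iaaA at 0.162 ± 0.0963, with BW25113 between them at 0.249 ± 0.139 (SD, n = 3). The purH value was 0.301 CPM without replicate 1, which held the 22 counts. Against BW25113 the log2 fold changes of gcy-33 ran from -0.56 in iaaA to 0.65 in purH, 6 of 10 were positive, and the standard errors were 0.56 to 0.79. Under other settings 4 to 9 of the 10 were positive.

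The cyclase partners of the URX neurons had few counts as well. For gcy-35 (WBGene00001555; chromosome I, 13325230 to 13333513, plus strand) the counts were 1, 5 and 5 in BW25113 and 0 to 13 over all libraries. Its exons overlap casc-3 by 74 bases and T04D3.5 by 5 bases on the other strand. The highest mean was 0.325 ± 0.124 CPM in ycdC, with 13, 8 and 5 counts, and the lowest 0.0893 ± 0.0167 in crl, with 2 counts in each library, while BW25113 stood at 0.208 ± 0.132 (SD, n = 3). For gcy-36 (WBGene00001556; chromosome X, 15479017 to 15485711, plus strand) the counts were 3, 1 and 3 in BW25113 and 0 to 8 over all libraries. Its means ran from 0.196 ± 0.0759 CPM in yccU to 0.0450 ± 0.0391 in ycgJ, with 0.130 ± 0.0607 in BW25113. In CPM the 2 genes had different highest and lowest diets, while in TPM both were highest in ycdC and lowest in crl. In both, the mutant libraries overlapped with those of BW25113 in every comparison.

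The subunits of the cGMP-gated channel had the lowest mean TPM of the 10 genes. The count of tax-4 (WBGene00006526; chromosome III, 9181546 to 9185888, plus strand) was 1, 0 and 3 in BW25113 and 0 to 17 over all libraries, and 5 libraries were at 0. The 17 counts were again in purH replicate 1, and the purH mean of 0.181 ± 0.218 CPM, the highest of the diets, was 0.0561 without it. The next diets were yccU at 0.163 ± 0.101 and torY at 0.144 ± 0.180, while BW25113 stood at 0.0711 ± 0.0783 (SD, n = 3). The count of tax-2 (WBGene00006525; chromosome I, 9020945 to 9025608, plus strand) was 3, 1 and 2 in BW25113 and 0 to 9 over all libraries, with 7 libraries at 0. Its highest mean was also in purH, 0.171 ± 0.151 CPM, and BW25113 came next at 0.113 ± 0.0574. Without replicate 1 the purH mean was 0.142 CPM.

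The library purH replicate 1 held the highest count of 5 of the 8 low genes, namely npr-1, gcy-33, tax-2, tax-4 and ocr-2. It did not for gcy-35, which was at 0 there, nor for osm-9 at 4 counts or gcy-36 at 4. Its 86 counts over the 8 genes were above all other libraries, of which the next had 63. This library also had the highest TMM factor, 1.90, and after scaling its sum was 2.18 CPM, next to 2.07 in torY replicate 1. Its ciliated neuron markers summed to 18.75 CPM, the highest value of any library, while its pan-neuronal markers summed to 193.6 CPM, the lowest. The part of these shifts in the high counts was not tested.

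**Figure D2:**
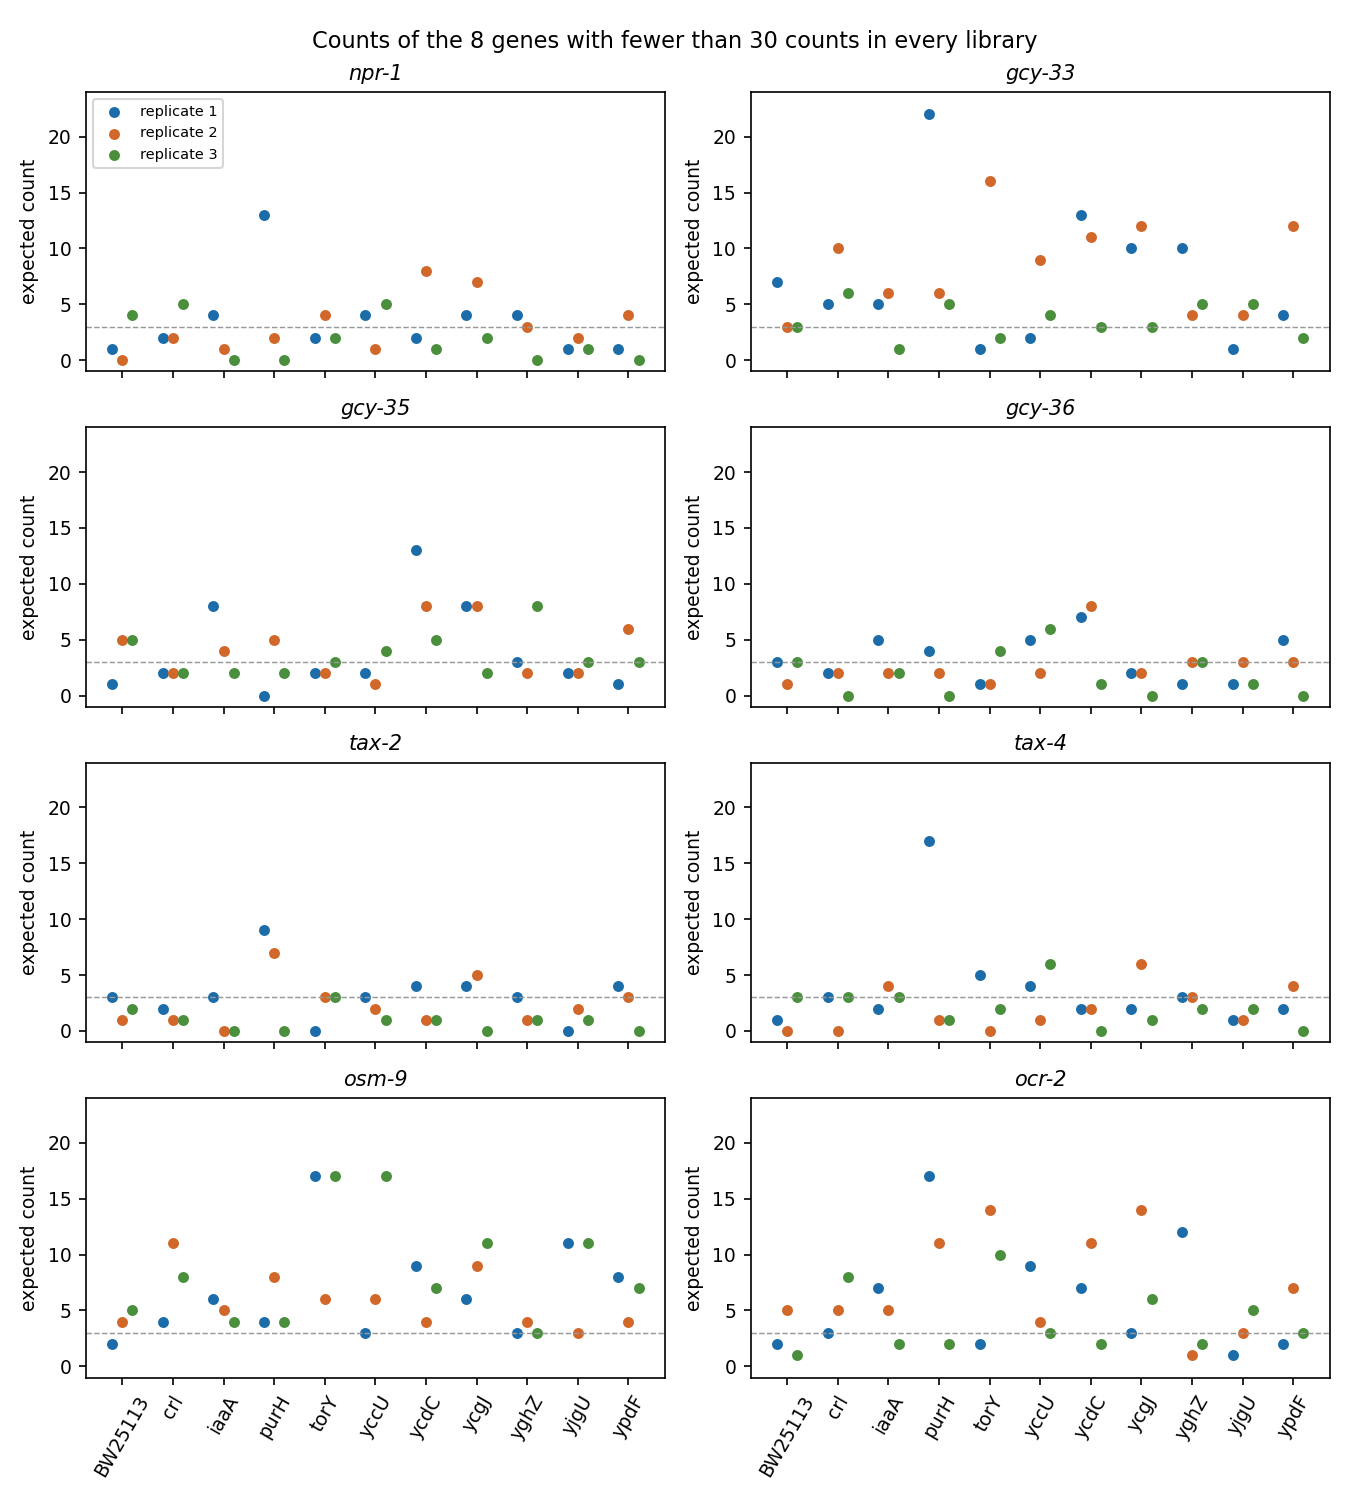
Expected counts (vertical axes, linear, the same in all panels) of the 8 low genes by diet (horizontal axis), 1 point per library, colored by replicate number, with a dashed line at 3 counts. Most points lie under 10 counts, and the first purH library reaches 13 counts of npr-1, 22 of gcy-33, 17 of tax-4 and 17 of ocr-2.

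The TRPV channel genes osm-9 and ocr-2 had their highest mean CPM in torY, although neither passed the test. In TPM this held for osm-9, while ocr-2 was highest in purH. The gene osm-9 (WBGene00003889; chromosome IV, 3551090 to 3557431, minus strand) stood at 1.17, 0.232 and 0.745 CPM in torY replicates 1 to 3 (17, 6 and 17 counts). In BW25113 it stood at 0.117, 0.245 and 0.258 CPM (2, 4 and 5 counts). torY replicates 1 and 3 thus lay above all BW25113 libraries, and torY replicate 2 lay among them. The log2 fold change was 1.74 (SE 0.71), with an unadjusted p = 0.0209 and an adjusted p = 0.0824 by the quasi-likelihood test of edgeR. Without torY replicate 2, the torY library with the lowest value, it was 2.17 (SE 0.72, adjusted p = 0.0455 by the same test). Of 38 alternatives, this fit alone called the gene. In the others the adjusted p was at least 0.0583 by edgeR or DESeq2. As reported, 14.9% of all genes were called in torY, and the share without torY replicate 2 is not given here.

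Over the other diets osm-9 was at 0.442 ± 0.249 CPM in yjgU, 0.398 ± 0.302 in yccU, 0.376 ± 0.219 in ycgJ, 0.323 ± 0.0989 in crl, 0.306 ± 0.146 in ypdF, 0.276 ± 0.144 in ycdC, 0.238 ± 0.120 in purH and 0.219 ± 0.0157 in iaaA (SD, n = 3). BW25113 at 0.207 ± 0.0783 CPM and yghZ at 0.133 ± 0.0511 were the lowest. In yccU, as in torY, the libraries were split, with 17 counts in replicate 3 and 3 and 6 in the others. Of the 10 log2 fold changes against BW25113, 9 were positive.

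Its partner ocr-2 (WBGene00003839; chromosome IV, 8213788 to 8220087, minus strand) had 2, 5 and 1 counts in BW25113 and 2, 14 and 10 in torY. The torY mean was 0.373 ± 0.209 CPM and that of BW25113 0.158 ± 0.132, a log2 fold change of 1.28 (SE 0.77, unadjusted p = 0.110 and adjusted p = 0.225 by edgeR). The next diet, purH, was at 0.341 ± 0.172 CPM (log2 fold change 1.16, SE 0.77), and the lowest diet, yjgU, was at 0.154 ± 0.0950 (SD, n = 3). All 10 log2 fold changes of ocr-2 against BW25113 were positive, from 0.01 in yjgU to 1.28 in torY. These comparisons share the 3 control libraries, and under other settings as few as 6 of 10 were positive.

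The gene odr-4 (WBGene00003851; chromosome III, 6730800 to 6733936, plus strand) was the 1 member with deep coverage, 435 to 1168 expected counts per library. It stood at 30.7, 50.3 and 36.4 CPM in BW25113 and at 30.0, 26.8 and 31.0 CPM in torY, the diet with the lowest mean. The means were 43.4 ± 14.4 CPM in iaaA, 40.2 ± 13.0 in ypdF, 39.1 ± 10.1 in BW25113, 38.9 ± 11.2 in crl, 38.8 ± 6.21 in ycgJ, 36.5 ± 3.40 in yjgU, 36.2 ± 14.1 in ycdC, 33.3 ± 5.51 in yccU, 31.0 ± 11.3 in yghZ, 30.0 ± 5.75 in purH and 29.3 ± 2.24 in torY (SD, n = 3). The highest and the lowest diet differed by 1.48 times, and each diet overlapped with BW25113.

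The fold changes of odr-4 were the most precise of the 5 genes tested. They ran from -0.42 in torY to 0.15 in iaaA on the log2 scale, each with an SE of 0.32, and the lowest unadjusted p was 0.204 (adjusted p = 0.336, edgeR, torY). Its direction depended on the scaling and on a control library: 2 of 10 changes were positive with TMM factors and 9 of 10 on library totals with no such factor, a setting that raised the median of all genes by 0.11 in yjgU to 0.72 in purH on the log2 scale. With TMM factors, 6 of 10 were positive when BW25113 replicate 2 was left out. In the deposited TPM, too, BW25113 was in place 8 of 11 diets, while it was in place 3 in CPM. The gene odr-8, which acts with odr-4 in moving receptors to the cilia, had a like level of 19.4 ± 8.03 TPM (SD, n = 33). The channels had no such level, although OSM-9 and OCR-2 are known to act in cells that use ODR-4.

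**Figure D3:**
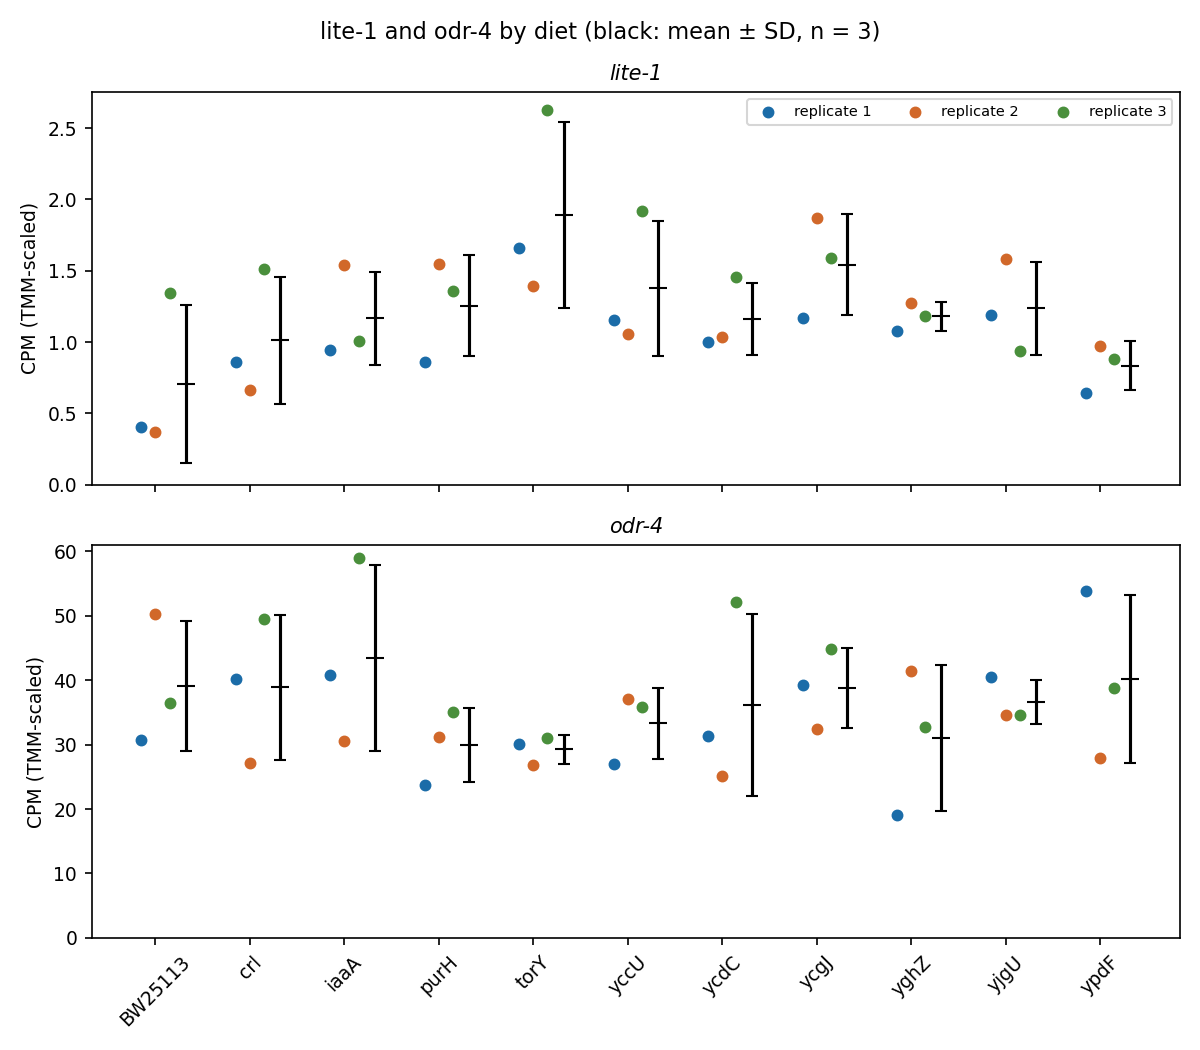
CPM on TMM-scaled library sizes (vertical axes, linear from 0) of lite-1 and odr-4 by diet, 1 point per library colored by replicate number, with the mean and SD of 3 libraries in black. The 3 torY libraries lie at 1.39 to 2.63 CPM of lite-1, above BW25113 at 0.368 to 1.34 CPM, and the diets overlap for odr-4.

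The light receptor gene lite-1 (WBGene00001803; chromosome X, 6226126 to 6230769, minus strand) was the 1 member that passed the test, and it was higher in torY. It stood at 0.408, 0.368 and 1.34 CPM in BW25113 replicates 1 to 3 (7, 6 and 26 counts). In torY it stood at 1.66, 1.39 and 2.63 CPM (24, 36 and 60 counts). The groups did not overlap in CPM, but they did in counts and in the deposited TPM, where BW25113 replicate 3 had 0.80 TPM and torY replicate 1 had 0.65. Among all genes tested, 25.5% lay above BW25113 in torY in this way. The log2 fold change was 1.40 (SE 0.46, adjusted p = 0.0410, edgeR). Of all 14696 genes tested in torY, 14.9% were called and 9.66% rose, so 1 call among 5 genes is near that background.

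The lite-1 call lay close to the threshold. Of 33 fits that each left out 1 library, 28 kept it. The call was lost without BW25113 replicate 1 (log2 fold change 1.13, adjusted p = 0.131) or replicate 2 (1.10, 0.161), without torY replicate 1 (1.48, 0.0705) or replicate 3 (1.09, 0.163), and without yghZ replicate 2 (1.18, 0.0737), all by edgeR. Without BW25113 replicate 3, the control library with 26 counts, the log2 fold change was 2.27 (SE 0.50, adjusted p = 0.0436, edgeR). It was also lost with no filter on low counts (1.31, adjusted p = 0.0712) and on library totals with no TMM factor (1.63, adjusted p = 0.0711, where the median of all genes was 0.28). The number of all genes called in torY, 2193, moved with single libraries as well. It was 0 when BW25113 replicate 2 was left out (4063 genes had an unadjusted p under 0.05 in that fit of edgeR), 745 without the first control library and 578 without the third. Dropping the first or the third torY library left 532 or 153 genes.

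Beside this change, molting and larval cuticle markers summed to 1529 to 5183 CPM in the torY libraries and 331.8 to 1700 in BW25113, with 9 of 19 risen and none at 0. Sperm markers summed to 17.8 to 21.4 CPM against 1.75 to 4.31, with 4 of 8 risen and none at 0. Yolk genes summed to 26989 to 52172 CPM against 75427 to 100212, and of these 6 genes 0 were called by edgeR, 4 had an unadjusted p under 0.05 and 3 were called by DESeq2. Pan-neuronal markers summed to 419.4 to 576.5 CPM against 468 to 543.2, but their mean level per gene, as log2(CPM + 1) relative to all libraries, was 0.14 to 0.40 in the torY libraries and at most 0.08 in those of BW25113. Their log2 fold changes had a median of 0.37, with 12 of 17 positive. Of these 17 genes 0 were called by edgeR, 2 had an unadjusted p under 0.05 and 2 were called higher by DESeq2. Of all genes tested in torY, 36.5% had an unadjusted p under 0.05 by edgeR. Ciliated neuron markers summed to 4.446 to 6.704 CPM in torY against 7.415 to 10.14. Of the 13 tested, 1 had a positive log2 fold change, and the median was -0.72. Of these 13 genes 0 were called by edgeR or DESeq2 and 0 had an unadjusted p under 0.05. Their part in the lite-1 result was not tested.

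In every one of the 10 mutant diets the mean of lite-1 was above that of BW25113, in CPM as in TPM. After torY at 1.89 ± 0.651 CPM came ycgJ at 1.54 ± 0.354, yccU at 1.38 ± 0.475, purH at 1.26 ± 0.353, yjgU at 1.24 ± 0.326, yghZ at 1.18 ± 0.0993, iaaA at 1.17 ± 0.328, ycdC at 1.16 ± 0.253, crl at 1.01 ± 0.445 and ypdF at 0.834 ± 0.170, with BW25113 last at 0.706 ± 0.552 (SD, n = 3). Neighbours in this order differed by less than the larger of their SDs. In TPM the highest diet was ycgJ at 1.19 ± 0.534, followed by torY at 1.11 ± 0.531. The comparisons share the 3 BW25113 libraries, of which replicates 1 and 2 were below all 30 mutant libraries, and replicate 3 was among them. One sign in all 10 comparisons was not particular to lite-1. Of the other circuit genes described below, flp-18, flp-8, gcy-9 and exp-1 had positive log2 fold changes in all 10. Those of npr-4, daf-1, daf-3, daf-5 and prdx-2 were negative in all 10. The share of all genes with one sign throughout is not given here.

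Against BW25113, the log2 fold changes of lite-1 ran from 0.23 in ypdF to 1.40 in torY. In yccU it was 0.95 (SE 0.46, unadjusted p = 0.0466, adjusted p = 0.180, edgeR) and in ycgJ 1.11 (SE 0.45, unadjusted p = 0.0215, adjusted p = 0.835, edgeR). The mean of the 10 mutants against BW25113 was 0.79 (SE 0.36, unadjusted p = 0.0373, adjusted p = 0.539, edgeR). Leaving out BW25113 replicate 1 or 2 turned the ypdF value to -0.05 or -0.08, and leaving out replicate 3 raised it to 1.10 (SE 0.49, adjusted p = 0.982, edgeR), while the other 9 diets stayed positive in all 40 alternatives.

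Of the 100 pairs of a member and a mutant diet, 1 was without overlap with BW25113 in CPM, lite-1 in torY. Of all genes tested, the share without overlap in either direction was 47.3% in torY, 34.4% in yccU, 25.3% in yjgU, 14.9% in yghZ, 11.5% in purH, 9.20% in ycgJ, 7.95% in ycdC, 7.88% in crl, 4.72% in iaaA and 2.96% in ypdF.

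Over all 50 tests of a member in a mutant diet, 37 log2 fold changes were positive, 4 had an unadjusted p under 0.05 (osm-9 in torY and lite-1 in torY, yccU and ycgJ) and 1 was called by edgeR. These tests share the same BW25113 libraries and are not independent. Of the positive values, lite-1 and ocr-2 gave 10 each, osm-9 9, gcy-33 6 and odr-4 2. Of all genes tested, 44.3% in yjgU to 60.9% in purH had a positive value. DESeq2 called the same 1. In the comparisons other than torY, no member was called by edgeR or DESeq2. Of all genes, edgeR called 2.62% in yccU and 0 in the remaining 8 diets, so there the members did as nearly all genes did. An unadjusted p under 0.05 was found for 36.5% of all genes in torY, 26.9% in yccU, 7.17% in purH, 6.71% in yghZ, 6.49% in yjgU, 4.74% in ycgJ, 4.64% in ycdC, 1.32% in ypdF, 1.12% in iaaA and 1.02% in crl. An F test across all 11 diets called 0 of the 5 genes by edgeR, with 0 at an unadjusted p under 0.05 and 0 called by the likelihood ratio test of DESeq2, while edgeR called 3.16% of all genes and 20.9% had an unadjusted p under 0.05. In the mean of the 10 mutants against BW25113, 0 members and 0 of all genes were called by edgeR. DESeq2 called 0 members, with no adjusted p for 3 of the 5, and 1 member, lite-1, had an unadjusted p under 0.05, as had 9.00% of all genes by edgeR.

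In torY the values of the 5 tested members differed in size and sign. Relative to a median log2 fold change of 0.01 over all genes tested, osm-9, lite-1 and ocr-2 had values of 1.74, 1.40 and 1.28, gcy-33 had 0.13 and odr-4 had -0.42. The gcy-33 value turned to -1.58 without torY replicate 2, the library with 16 of the 19 counts in that diet. The differences between the genes were not tested.

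The genes most like odr-4 over the 33 libraries, by Pearson correlation of log2 CPM among 4764 genes with at least 5 CPM, were epg-6 (r = 0.942), an autophagy gene, and etr-1 (r = 0.933), a gene for an RNA-binding protein. For lite-1 they were hex-1 (r = 0.769), a gene for a hexosaminidase, and pgal-1 (r = 0.701), a gene for an enzyme of peptide amidation, among 4765 genes. These values describe the 33 libraries, which share diets and scaling factors, and carry no p. The other 8 members had a mean under 1 CPM, too low for such a measure.

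Other genes of the circuit were taken from a list of 40, of which 39 were found among the symbols and 27 passed the filter on low counts. The remaining 12 had means of at most 0.0694 TPM, that of gcy-37, a soluble guanylate cyclase of the same family. Among these 12 were also its relatives gcy-31, gcy-32 and gcy-34 and the globin gene glb-5, a modulator of the oxygen response in URX. Over the 10 comparisons 0 of the 27 genes were called by edgeR or DESeq2, and 11 of their values had an unadjusted p under 0.05, 5 of them in torY, where 36.5% of all genes had one. The others were daf-5 and exp-1 in purH, flp-18 and daf-3 in yccU, flp-8 in yghZ and gcy-9 in ypdF. In torY 8 of the 27 genes lay above BW25113 in CPM without overlap and 3 below (unc-86, daf-1 and daf-3). Of all genes tested, 25.5% lay above, and 47.3% were without overlap in either direction. Their median log2 fold change in torY was 0.35, and 15 of 27 were positive, where 50.3% of all genes were.

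Transcripts of the NPR-1 ligand genes were far above those of npr-1 in TPM, where npr-1 rests on 92 counts in all. Peptides and receptor protein were not measured. The gene flp-21 had a mean of 13.6 TPM, 170 times npr-1. It stood at 7.23, 5.39 and 4.70 CPM in BW25113 and at 11.7, 9.01 and 12.4 CPM in torY, with no overlap (log2 fold change 0.93, SE 0.47, adjusted p = 0.149, edgeR). The other ligand gene, flp-18, stood at 3.50, 4.78 and 5.68 CPM in BW25113 and at 6.98, 7.27 and 11.3 CPM in torY, also without overlap (0.87, SE 0.37, adjusted p = 0.0947, edgeR). Of all genes tested, 25.5% lay above BW25113 in torY in this way. In yccU flp-18 was at 7.55, 4.05 and 13.3 CPM (0.84, SE 0.37, adjusted p = 0.153, edgeR). It was called there only without yccU replicate 2, its lowest library in that diet (1.16, SE 0.37, adjusted p = 0.0383, edgeR). As reported, 2.62% of all genes were called in yccU. That number moved with single libraries left out, and the share in this fit is not given here. Of the other receptors of FLP-18, npr-5 had a log2 fold change of 0.78 (SE 0.46) in torY and npr-4 one of -0.38 (SE 0.47).

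Peptide genes of the oxygen-sensing neurons had values of the same size in torY. Most pan-neuronal markers, with a median log2 fold change of 0.37 and 12 of 17 positive, had the same sign. By edgeR 0 of them were called and 2 had an unadjusted p under 0.05, while 36.5% of all genes had one. Most ciliated neuron markers, with a median of -0.72 and 1 of 13 positive, had the other sign, and 0 had an unadjusted p under 0.05 (edgeR). The part of both lists in these values was not tested. The most abundant, flp-11, with a mean of 42.5 TPM, was at 52.4 ± 10.7 CPM in torY, with 43.1 as the lowest library, and at 33.8, 31.0 and 17.5 CPM in BW25113 (SD, n = 3). For flp-19, a peptide gene of URX and other neurons, the values were 22.3, 14.5 and 21.4 CPM in torY and 12.2, 8.83 and 9.30 CPM in BW25113. Both genes thus lay above BW25113 without overlap, as did 25.5% of all genes tested. The log2 fold changes were 0.93 (SE 0.51, adjusted p = 0.181) for flp-11 and 0.94 (SE 0.38, adjusted p = 0.0820) for flp-19 by edgeR. For flp-8 (0.95, SE 0.39), flp-17 (0.93, SE 0.39) and flp-10 (0.63, SE 0.30) they were alike in sign, and for egl-6, a receptor for FLP-17 and FLP-10, the value was -0.64 (SE 0.40). When only the 6 libraries of torY and BW25113 were fitted, 22 of these genes were tested and 7 were called, all higher, while 29.5% of all genes were called in that fit and 20.1% rose: flp-8, flp-11, flp-17, flp-18, flp-19, flp-21 and npr-5. The names flp-8, flp-10, flp-17, flp-18, npr-4, npr-5, egl-6, ahr-1, unc-86, daf-1, daf-7, gcy-9 and exp-1 were chosen after their values were seen.

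The other parts of the circuit gave no call by edgeR or DESeq2 in any diet. Among the channels, cng-1, a subunit related to TAX-2 and TAX-4, had a log2 fold change of -1.56 (SE 1.06) in torY, and odr-8 one of -0.42 (SE 0.29). The cGMP-dependent kinase gene egl-4, at 56.1 TPM, had a mean of 214 ± 63.5 CPM in BW25113 and of 199 ± 55.9 CPM in torY (SD, n = 3), and the phosphodiesterase gene pde-1 had a log2 fold change of 0.78 (SE 0.45). Of the transcription factors, ets-5, which specifies BAG neurons, had 0.51 (SE 0.66) and egl-13, which acts in BAG and URX, had 0.35 (SE 0.42). In the same group ahr-1 had -1.39 (SE 0.78) and unc-86 -1.15 (SE 0.68) in torY. The median of the 4 factors tested was -0.40. In the DAF-7 pathway, a TGF-beta route that also affects gathering, daf-3 had -0.78 (SE 0.40) and daf-5 -0.45 (SE 0.53) in torY. For daf-1 the value was -0.78 (SE 0.46) and for daf-7 it was 0.36 (SE 0.46). The values of daf-1, daf-3 and daf-5 were negative in every mutant diet, against the same BW25113 libraries. The largest in size was that of daf-5 in purH (-1.26, SE 0.54, unadjusted p = 0.0275, adjusted p = 0.572, edgeR). The peroxiredoxin gene prdx-2, which acts in light sensing, had a mean of 1687 ± 624 CPM in BW25113 and of 1260 ± 232 CPM in torY (SD, n = 3), and qui-1, a gene needed for avoidance of quinine, had 0.43 (SE 0.48).

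**Figure D4:**
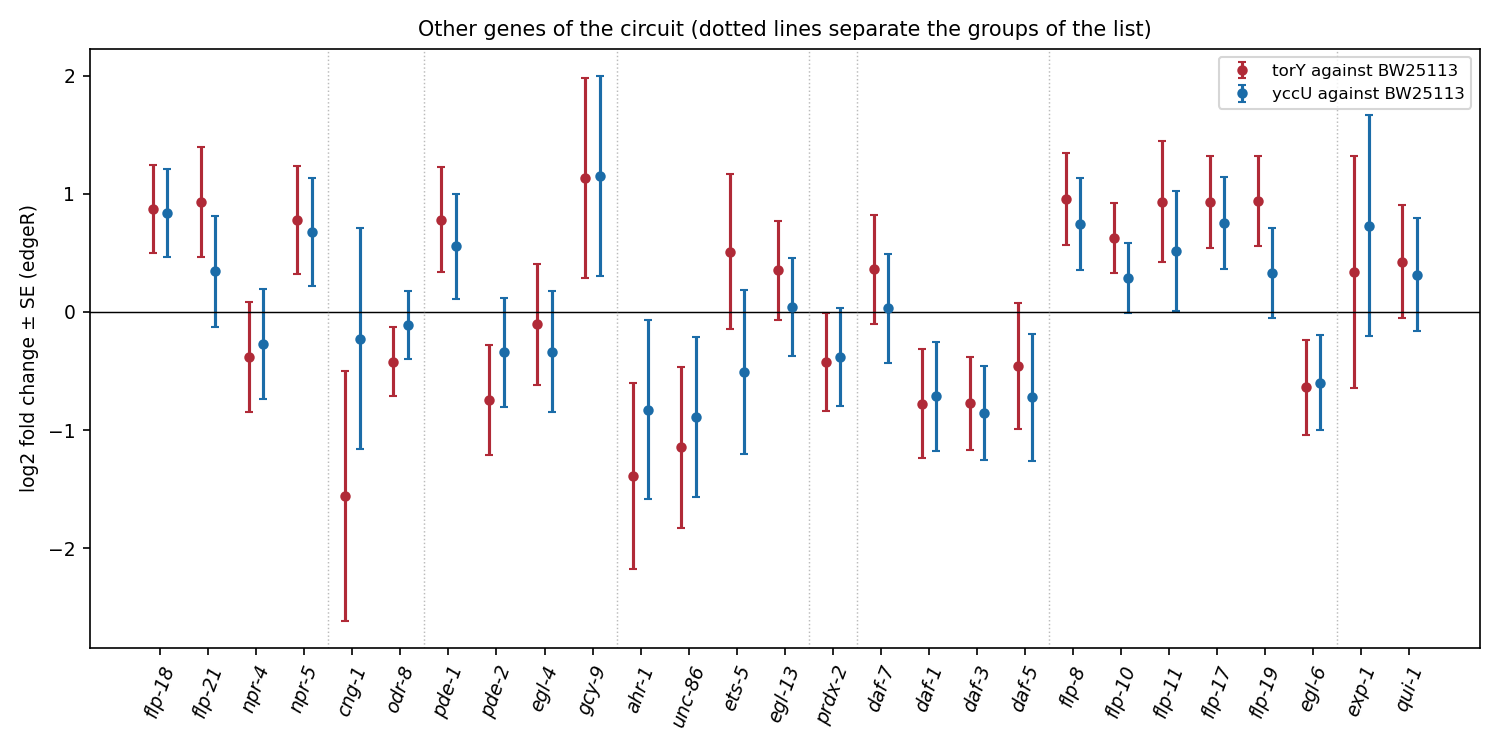
Log2 fold change with its SE (vertical axis) of the 27 other circuit genes tested, in torY (red) and yccU (blue) against the same 3 BW25113 libraries, from edgeR, with dotted lines between groups of the list. The flp genes lie above 0 in torY, at 0.63 to 0.95, and none of the values has an adjusted p under 0.05.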

How the data were processed

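Expected counts and TPM values per gene symbol were deposited by the authors for each library, per the file headers. The submitters' processing notes name WBcel235 as the build and list Bowtie2, HISAT and StringTie, without roles or versions. How reads shared by genes were counted is not given in the sources used here. Nothing says that replicates came from separate cultures, so the p-values cover only a spread between samples that may be technical. Of the deposited expected counts, 7.78% to 10.0% per library were not whole, and all were rounded. The deposited TPM values were used to compare levels between genes, untested.

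Counts were fitted in edgeR 4.0.16 (R 4.3.3) with the quasi-likelihood test, TMM factors (0.661 to 1.90) and filterByExpr, which kept 14696 of 18811 symbols, in 1 model of the 33 libraries by diet. Genes were called where p, adjusted by Benjamini and Hochberg within a comparison across every tested gene, was under 0.05. The SE was taken as |log2 fold change| over the root of F. The fit was tested on simulated counts. DESeq2 1.42.0 was an alternative. No replicate pair looked like 1 library deposited again (33 pairs, lowest chi-square per degree of freedom 15.7). Positions are from Ensembl release 115 of the same build.

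The members, lists and tests were chosen with earlier results of these data known. All 10 members are named. Of the other circuit genes, called ones and, in each group of the list without a call, the gene with the highest TPM and the one with the lowest p in the F test are named. Of the 40 listed, daf-11 was not analysed here.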

Additional observations from a re-analysis of the deposited data

How the results depend on the processing

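The number of member calls over the 10 comparisons was 1 as reported. It was also 1 with the size factors of DESeq2 in edgeR, with DESeq2 itself, with a filter at a mean of 1 CPM, with the 6 libraries of each comparison alone and with the replicate block (2 members were tested under the 1 CPM filter and in the fits of 6 libraries). It was 0 with no filter on low counts and 0 on library totals with no TMM factor, a setting chosen after seeing the data, and the cause was not tested. Leaving out each library gave 0 to 2 calls. Calls of the other circuit genes were 0 as reported, 7 with the 6 libraries alone, and 0 to 1 with a library left out. Member counts in the F test and in the mean of the mutants were 0 under all alternatives run. Deviations of same-numbered libraries had a median correlation of 0.0987, with 82 of 165 pairs over 0.1. For other pairs the median was -0.0461. Whether same-numbered libraries share a batch is not stated, and these correlations cannot decide it. Over all genes, calls in torY were 2193 as reported, 2670 with the replicate block, 3404 by DESeq2, 3834 with the 6 libraries alone, 823 with no TMM factor and 0 to 2895 with a library left out. In yccU they were 385, 1169, 1843, 1641, 99 and 0 to 2177 in the same order, 209 with no filter and 233 with the 1 CPM filter. In the F test they were 465, 716 with the block, 2345 by DESeq2, 105 with no TMM factor and 157 to 995 with a library left out. With the 6 libraries alone 544 genes were called in yjgU in place of 0. Of 2132 recomputed fold changes of members, 75 changed sign, and 0 called values reversed. The 5 members that the filter left out had a median of 2 or 3 counts per library, and the part of depth in their lack of calls was not tested. With no filter the lowest unadjusted p of their 50 tests was 0.170 (gcy-35 in crl, edgeR).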
